A study of Mus musculus with 10 samples.

Results

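The Hox genes of the newborn mouse hindbrain and upper spinal cord were followed across 10 mice, 5 wild type and 5 Nkx2.2-/-. Of 38 listed Hox genes, 35 had a probe set on the expression array, and 51 of the 45037 non-control probe sets carried their symbols (35 of 19324 gene symbols in all). Of these, 48 read 1 gene and 3 were annotated to a pair of neighbouring genes, Hoxd3 with Hoxd4 (2 probe sets) and Hoxb7 with Hoxb8 (1 probe set). Hoxa6, Hoxc11 and Hoxc12 matched no probe set by symbol, so their expression was not analysed here. Hoxa6 has a promoter window in the counts below. The members lay in clusters a (9 genes), b (10), c (7) and d (9), and are ordered below by paralogue number, 1 to 13.

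The mice were of the C57BL/6 strain. The wild-type animals were littermates of the Nkx2.2-/- animals, in which the gene of the ventral neural homeobox factor Nkx2.2 is disrupted; the sources used here do not describe the allele. At 1.5 to 2 days after birth the animals were perfused, and RNA was taken from pons, medulla and rostral spinal cord cut out of 20 µm sagittal sections, with 1 array for each mouse. Values below are log2 RMA values, and are listed for wild-type mice 14, 15, 16, 18 and 21 and for Nkx2.2-/- mice 11, 12, 22, 29 and 43, in that order. Litters are not marked in the labels, so mice of 1 litter count as separate samples.

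Hox genes encode homeodomain transcription factors and sit in 4 clusters on separate chromosomes. Their order along a cluster matches the order of their expression along the body axis: low paralogue numbers reach far forward into the hindbrain, middle numbers begin at cervical and then thoracic cord, and the highest numbers mark lumbar and sacral cord. In the neonatal hindbrain and cord they still mark the level from which a neuron came, and in the cord they set the identity of motor columns and pools.

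Promoter sequences are shown for 3 members that stand for different parts of this order, Hoxa5 (read strongly in every mouse) and Hoxd8 and Hoxa9 (dim, with at least 1 probe set highest in the same 3 mice). Each is 300 bases from RefSeq, build GRCm38.p6, 5′ to 3′ on the gene's strand, from 250 bases before to 50 after the start. Capitals mark the letters AAGTG, the core bound by NK-2 class homeodomain proteins such as Nkx2.2, on either strand. The windows are chr6:52204538-52204837 (minus strand), chr2:74704365-74704664 (plus strand) and chr6:52227321-52227620 (minus strand).
Hoxa5: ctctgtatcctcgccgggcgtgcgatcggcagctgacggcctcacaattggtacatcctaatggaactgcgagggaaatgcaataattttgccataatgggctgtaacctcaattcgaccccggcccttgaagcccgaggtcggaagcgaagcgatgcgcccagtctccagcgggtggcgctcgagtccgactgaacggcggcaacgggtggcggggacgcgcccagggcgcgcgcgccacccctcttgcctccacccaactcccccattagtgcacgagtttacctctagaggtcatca
Hoxd8: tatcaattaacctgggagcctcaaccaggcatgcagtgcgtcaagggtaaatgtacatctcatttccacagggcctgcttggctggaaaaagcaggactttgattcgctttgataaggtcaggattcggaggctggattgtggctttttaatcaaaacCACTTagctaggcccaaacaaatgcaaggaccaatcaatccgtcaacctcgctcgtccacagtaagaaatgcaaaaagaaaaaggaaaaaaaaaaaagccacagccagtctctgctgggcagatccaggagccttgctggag
Hoxa9: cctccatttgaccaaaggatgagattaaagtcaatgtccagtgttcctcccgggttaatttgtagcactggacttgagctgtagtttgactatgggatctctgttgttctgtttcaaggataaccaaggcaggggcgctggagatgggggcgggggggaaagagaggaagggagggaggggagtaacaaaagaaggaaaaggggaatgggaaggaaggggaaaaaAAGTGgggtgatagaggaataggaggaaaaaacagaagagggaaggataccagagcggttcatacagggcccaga

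AAGTG occurred 0 times in the Hoxa5 window and 1 time each in those of Hoxd8 and Hoxa9. Over the 24 windows given for 22 Hox genes, 9 held it (37.5%), against 46.4% of all 32851 promoter windows of that length. The others that held it were those of Hoxa2, Hoxb4, Hoxb1, Hoxd1 and Hoxd12, and 1 window each of Hoxa10 and Hoxd11. Of these genes, all but Hoxa2 and Hoxb4 were above background in no mouse. The Hoxb8 window held it 0 times, though the probe set shared by Hoxb7 and Hoxb8 was highest in the same mice as those of Hoxd8. A link between AAGTG and the Hox values was not tested. The letters TGATNNAT, a site form shared by Hox proteins and their Pbx partners, were in 4 of the 24 (16.7%) and in 8.85% of all. Both motifs were searched on both strands and counted separately, without regard to overlap between them. The Hoxa5 window held 29 CG pairs, that of Hoxd8 held 6 and that of Hoxa9 held 4, against a median of 14.5 over the Hox windows and of 7 over all windows. These are counts of letters only.

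The arrays gave medians from 5.07 to 5.12. Because RMA gives no detection call, a gene was taken as above background on an array when it exceeded the 95th percentile of 77 probe sets of olfactory and vomeronasal receptor genes, which lay between 5.12 and 5.28. The Nkx2-2 probe set was at 6.42 to 6.88 in wild-type and 4.24 to 4.73 in Nkx2.2-/- mice (log2 difference -2.05, SE 0.111, limma adjusted p = 7.2e-05), so this signal followed the labels; where the probes lie relative to the targeted part was not known here. For Gapdh, the control of RNA length, the 3 prime control signal exceeded the 5 prime one by 2.13 on wild-type array 14 and by 3.78 on Nkx2.2-/- array 43, and by at most 0.13 on the other 8. Of 10 markers of hindbrain and cord neurons, 8 were measured, and Lbx1, Slc6a5, Isl1 and Lhx1 were above background on all 10 arrays, while the cholinergic genes Chat and Slc5a7 were above it on none.

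In every mouse, Hox genes of paralogue groups 2 to 6 and 9 were above background, and no gene of groups 10 to 13 was. By probe sets of 1 gene, group 7 was above it in 9 mice (not wild-type 14) and group 8 in 8 (not wild-type 14 and 15), while the probe set shared by Hoxb7 and Hoxb8 was above it in all 10. Of 33 genes with a probe set of their own, 13 were above background in all 10 mice: Hoxb2, Hoxa3, Hoxb3, Hoxd3, Hoxa4, Hoxb4, Hoxc4, Hoxa5, Hoxb5, Hoxb6, Hoxc6, Hoxa9 and Hoxc9. A further 6 were above it in some mice, namely Hoxa2 in 4, Hoxc5 in 8, Hoxa7 in 9, Hoxd8 in 8, Hoxc8 in 3 and Hoxb9 in 2. The other 14 were above it in none, among them Hoxb1 and Hoxd1, of the lowest paralogue number, and all 10 genes of groups 10 to 13, whose 12 probe sets lay between 3.94 and 4.88. A probe set's brightness also depends on its probes, so a gene below background is not shown to be silent, and levels of different genes are not ranked.

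The caudal limit of each mouse, the highest paralogue number above background in any cluster, was 9 in all 10 mice. That number rested on single probe sets of Hoxa9 and Hoxc9 that lay just over background. The Hoxa9 probe set (1421579_at) was at 5.50, 5.45, 5.48, 5.46 and 5.57 in wild-type and at 5.48, 5.61, 5.52, 5.47 and 5.53 in Nkx2.2-/- mice, and the Hoxc9 probe set ran from 5.40 to 5.84. The 2 groups overlapped for both. The wild-type spread of both was smaller than that of most probe sets (SD 0.0484 for Hoxa9, above 18.1% of them, and 0.0414 for Hoxc9, above 12.2%). In Nkx2.2-/- mice the spread of Hoxa9 (SD 0.0544) was above 16.6% of them and that of Hoxc9 (SD 0.159) above 77.1%. With the 99th percentile of the receptor probe sets as background the limit was 6 in wild-type 14 and 16 and 9 in the other 8 mice. With these 2 probe sets set aside, a choice made after the data were seen, the limit was 6, 7, 8, 8 and 8 in wild-type and 8, 8, 9, 9 and 8 in Nkx2.2-/- mice.

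Only in cluster c could a run be followed in every mouse, since its most rostral gene measured, Hoxc4, was above background in all mice. The order was not complete, because Hoxc9 was above background in all 10 mice and Hoxc8 in 3. The unbroken run of genes above background from Hoxc4 onwards ended at paralogue 4 in wild-type 18 and Nkx2.2-/- 11, at 6 in wild-type 14, 15, 16 and 21 and Nkx2.2-/- 12, and at 9 in Nkx2.2-/- 22, 29 and 43. It ended at 8 in these last 3 mice when the Hoxc9 probe set was set aside. With the 90th percentile as background it ended at 6 in wild-type 18. With the 99th it ended at 5 in wild-type 14, at 4 in wild-type 15 and at 8 in Nkx2.2-/- 43. In clusters b and d no such run could start, because Hoxb1 and Hoxd1 were below background, and in cluster a Hoxa2 was at the line. The number of Hox genes above background was 15, 15, 16, 15 and 16 in wild-type and 15, 17, 18, 19 and 18 in Nkx2.2-/- mice. The genotypes overlapped in both measures, and the highest values of each were in Nkx2.2-/- mice.

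**Figure D1:**
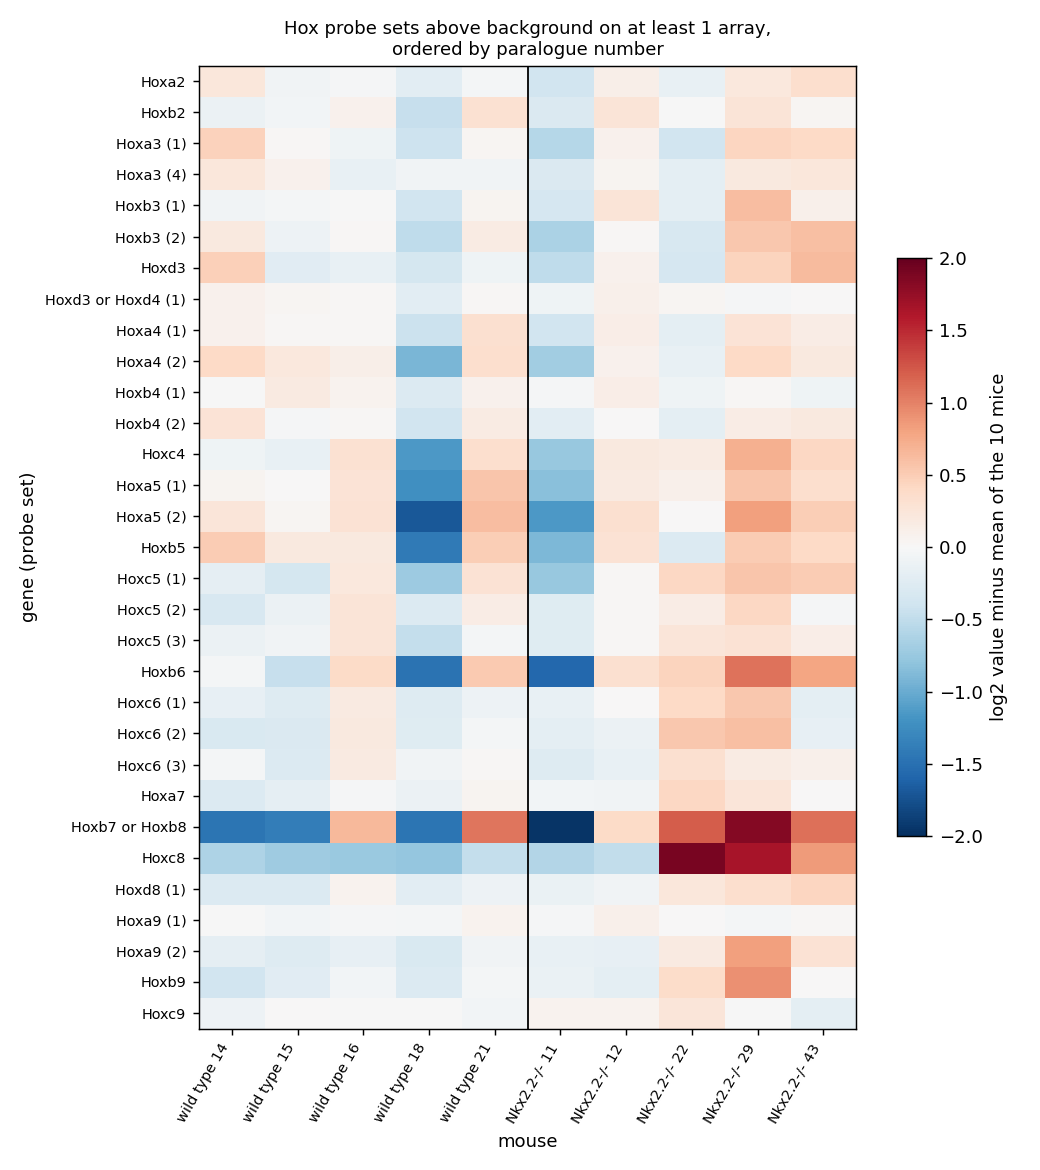
Deviation of each Hox probe set from its mean over the 10 mice (log2 units, colour), for the probe sets above background on at least 1 array, in rows by paralogue number, with wild-type mice left of the line and Nkx2.2-/- mice right of it. Wild-type 18 and Nkx2.2-/- 11 are low in Hoxc4, Hoxa5, Hoxb5 and Hoxb6, and Nkx2.2-/- 22, 29 and 43 are high in Hoxc8.

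In no Hox gene of groups 1 to 4 did the genotypes differ beyond the spread between mice. In whole tissue, fewer cells of a type and less RNA per cell cannot be told apart. Hoxb2, a gene of the hindbrain segments, was at 6.30, 6.37, 6.50, 5.95 and 6.72 in wild-type and at 6.13, 6.68, 6.42, 6.67 and 6.46 in Nkx2.2-/- mice. The groups overlapped and the log2 difference, Nkx2.2-/- minus wild type, was 0.10 (SE 0.142, limma adjusted p = 0.9997). Hoxb3 (1427605_at) was at 7.12, 7.15, 7.18, 6.81 and 7.25 against 6.85, 7.45, 7.0, 7.81 and 7.29. Its lowest values were again in wild-type 18 and Nkx2.2-/- 11, and the difference was 0.18 (SE 0.162). Hoxd3, of the group that patterns the caudal hindbrain, was at 7.19, 6.49, 6.57, 6.36 and 6.62 against 6.22, 6.81, 6.39, 7.17 and 7.35, with a difference of 0.14 (SE 0.227).

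The probe set shared by Hoxd3 and Hoxd4 was steadier, between 6.55 and 6.86 over all mice, with a difference of 0.016. Over all 18 probe sets of groups 1 to 4 the differences ran from -0.082 to 0.29, with 9 above and 9 below 0, and their median was 0.0074 against 0.0010 over all 45037 probe sets. The tally moved to 5 above and 13 below 0 without wild-type 18, and to 14 above and 4 below without Nkx2.2-/- 11. It was also 14 above and 4 below without wild-type 14, wild-type 21 or Nkx2.2-/- 22, and 7 above and 11 below without Nkx2.2-/- 29. With any other mouse left out, 8 to 11 were above 0. Hoxa2, a gene of the hindbrain segments, was close to background, between 4.76 and 5.48.

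Wild-type 18 and Nkx2.2-/- 11, lowest already in Hoxb2 and Hoxb3, lay farther from the other 8 mice in several genes of groups 4 to 6. Hoxa4, which with its paralogues marks the hindbrain to cord transition, was at 7.18, 7.0, 6.91, 5.87 and 7.12 in wild-type and 6.10, 6.87, 6.63, 7.18 and 6.98 in Nkx2.2-/- mice. Hoxc4 was at 7.86, 7.79, 8.23, 6.79 and 8.27 against 7.18, 8.13, 8.09, 8.65 and 8.34. In both genes the 2 mice, 1 of each genotype, were the lowest of all 10. The differences between genotypes were -0.061 (SE 0.265) for Hoxa4 and 0.29 (SE 0.314) for Hoxc4, both within the spread between mice. For Hoxc4 it was 0.041 without wild-type 18 and 0.52 without Nkx2.2-/- 11. Hoxa4, Hoxa5 and Hoxb5 are described in full because of their values, not by the rule for named genes.

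The same pair was lowest for the group 5 genes of the cervical cord and caudal medulla. Hoxa5, which is required for the motor neurons of breathing, was at 8.61, 8.42, 8.66, 6.67 and 8.99 in wild-type and 7.23, 8.69, 8.38, 9.20 and 8.87 in Nkx2.2-/- mice (1448926_at). Hoxb5 was at 8.84, 8.54, 8.54, 6.93 and 8.82 against 7.44, 8.62, 8.06, 8.85 and 8.73. Their standard deviations within the wild-type group, 0.917 and 0.799, exceeded those of about 99.9% of probe sets. The differences were 0.20 (SE 0.458) and 0.0050 (SE 0.383), far smaller than the spread. They were -0.20 and -0.35 without wild-type 18, so their sign depended on that mouse.

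Hoxc5 (1439885_at) was at 5.56, 5.38, 5.95, 5.0 and 6.02 in wild-type and 4.97, 5.76, 6.15, 6.29 and 6.24 in Nkx2.2-/- mice. Only wild-type 18 and Nkx2.2-/- 11 fell below background for it, and the difference was 0.30 (SE 0.268, limma adjusted p = 0.9997). Its other probe sets differed by 0.18 and 0.13.

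Some genes of groups 6 to 8 separated more of the mice. Hoxb6 was at 6.92, 6.50, 7.35, 5.50 and 7.50 in wild-type and 5.39, 7.28, 7.41, 8.06 and 7.75 in Nkx2.2-/- mice, a range of 2.67. The difference was 0.42 (SE 0.508), 0.11 without wild-type 18 and 0.87 without Nkx2.2-/- 11. Hoxc6, a gene of forelimb-level motor neurons, had 3 probe sets with differences from 0.068 to 0.27 and smaller ranges. The probe set shared by Hoxb7 and Hoxb8, a pair expressed through the cord, was at 6.08, 6.15, 8.19, 6.08 and 8.61 in wild-type and 5.58, 7.92, 8.75, 9.36 and 8.64 in Nkx2.2-/- mice. Here 4 mice, wild-type 14, 15 and 18 and Nkx2.2-/- 11, lay near 6 and the other 6 near 8 to 9, with no value between 6.15 and 7.92. This was the widest range of any Hox probe set, 3.79, and its standard deviations of 1.27 and 1.47 exceeded those of 99.95% and 99.98% of all probe sets within wild type and Nkx2.2-/-. The log2 difference of 1.03 (SE 0.749, 95% interval -0.62 to 2.68) came at a limma adjusted p of 0.9997 and an exact two-sided permutation p of 0.310. It was 0.65 without wild-type 14 and Nkx2.2-/- 43, the arrays of low 5 prime Gapdh signal, and 1.65 without Nkx2.2-/- 11. A probe set of Hoxb7 alone stayed below background in every mouse, between 4.63 and 4.87.

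Hoxc8, which helps set the identity of motor pools that innervate the forelimb, was at 4.69, 4.61, 4.58, 4.53 and 4.84 in wild-type and at 4.72, 4.82, 7.22, 6.96 and 6.17 in Nkx2.2-/- mice. It was below background in all 5 wild-type mice and in Nkx2.2-/- 11 and 12, and well above it in Nkx2.2-/- 22, 29 and 43, so the groups overlapped. The group means, 4.65 ± 0.122 and 5.98 ± 1.17 (SD over 5 mice), gave a log2 difference of 1.33 (SE 0.452, 95% interval 0.33 to 2.32). It did not pass (limma unadjusted p = 0.0138, adjusted p = 0.9997). Permuting the mice exactly for Hoxc8 alone gave a two-sided p of 0.0238. Since no wild-type value was above background, the size of this difference is not measured. With the wild-type mice counted at their background line, the observed group means of Hoxc8 differed by 0.78 in log2 units (1.72-fold). That was smaller than the difference of the shared Hoxb7 and Hoxb8 probe set. It carries the sampling error of the Nkx2.2-/- mean, which includes mice 11 and 12, and is not a minimum for the genotype. Nkx2.2-/- 43 is an array of low 5 prime Gapdh signal. Without it and wild-type 14 the difference was 1.29, and with array weights it was 0.85.

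**Figure D2:**
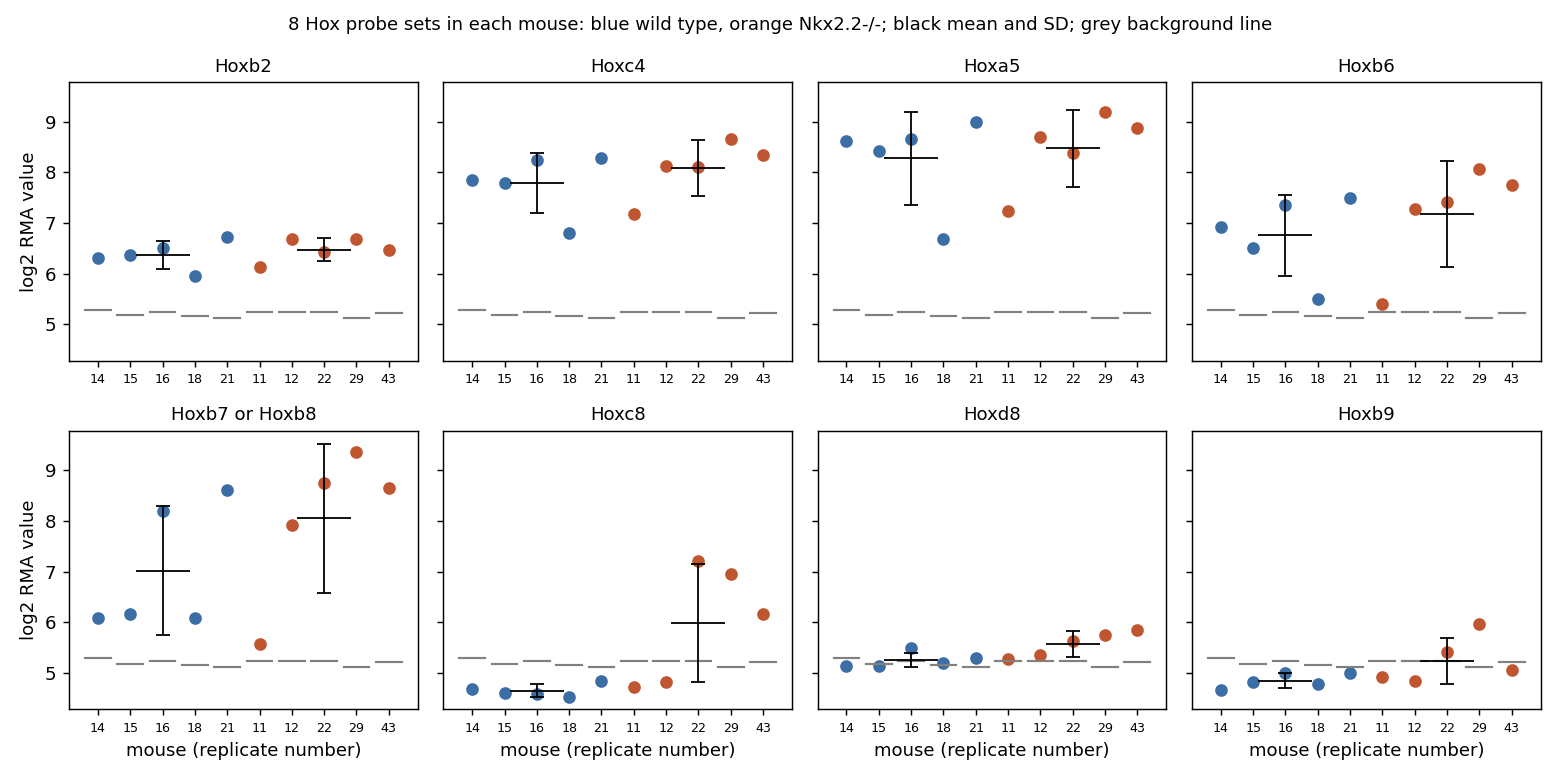
Log2 RMA values (vertical axis) of 8 Hox probe sets in each mouse (horizontal axis, replicate number), wild type in blue and Nkx2.2-/- in orange, with the mean and SD of each group in black and the background line of each array in grey. The shared Hoxb7 and Hoxb8 probe set has no value between 6.15 and 7.92, and Hoxc8 exceeds background only in Nkx2.2-/- 22, 29 and 43.

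The other group 7 to 9 members were dim. Of all 11 probe sets of these groups, 6 had their 3 highest values in Nkx2.2-/- 22, 29 and 43, those of Hoxb7 with Hoxb8, Hoxc8, Hoxd8 (both), Hoxb9 and 1 of Hoxa9. The other 5, of Hoxa7, Hoxb7 alone, Hoxc9, Hoxd9 and the other of Hoxa9, did not. These 3 mice were picked after their values were seen, so Hoxc8 counts by that choice. Several neighbouring Hox genes had the same lowest or highest mice, and the share of all probe sets with these 3 mice highest was not counted. Hoxd8 (1431099_at) was at 5.14, 5.13, 5.48, 5.20 and 5.30 in wild-type and 5.27, 5.35, 5.64, 5.74 and 5.85 in Nkx2.2-/- mice, a difference of 0.32 (SE 0.114, limma unadjusted p = 0.0185). A second Hoxd8 probe set, below background throughout, ran the same way (0.19, SE 0.0808). Nkx2.2-/- 22, 29 and 43 were the highest mice for both. Hoxa7 was at 5.27, 5.37, 5.52, 5.42 and 5.60 against 5.49, 5.47, 5.96, 5.79 and 5.56, a difference of 0.21 (SE 0.0998, limma unadjusted p = 0.0548), and here Nkx2.2-/- 43 lay within the wild-type range.

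Of the thoracic group 9, Hoxb9 was at 4.66, 4.82, 4.99, 4.77 and 5.0 in wild-type and 4.91, 4.85, 5.41, 5.96 and 5.05 in Nkx2.2-/- mice, above background in Nkx2.2-/- 22 and 29 only. Its difference was 0.39 (SE 0.188, limma unadjusted p = 0.0651), and it is described because of its values. The dimmer Hoxa9 probe set (1455626_at) was at 4.62, 4.55, 4.64, 4.50 and 4.73 against 4.64, 4.63, 4.98, 5.62 and 5.08, above background in Nkx2.2-/- 29 only. It differed by 0.38 (SE 0.161, limma unadjusted p = 0.0370), whereas the brighter Hoxa9 probe set differed by 0.029 (SE 0.0397), so the 2 readings of this gene disagreed. With array weights the differences of the second Hoxd8 probe set, this dimmer Hoxa9 one and Hoxb9 were 0.099, 0.25 and 0.24. Hoxc9, which specifies thoracic motor columns, differed by 0.072 (SE 0.0691), and Nkx2.2-/- 43 was its lowest mouse at 5.40. Hoxd9, below background throughout, was highest in Nkx2.2-/- 12 at 4.84 and differed by 0.0014.

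Groups 10 to 13, the genes of lumbar and sacral cord, gave no mouse above background. Hoxd11 alone of these had an unadjusted p under 0.05, with values of 4.10 to 4.32 in wild-type and 4.29 to 4.43 in Nkx2.2-/- mice, a difference of 0.13 (SE 0.0458, limma unadjusted p = 0.0195). All its values lay below background, so its level is only a bound.

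Over the whole comparison, 0 of 51 Hox probe sets passed in either direction (limma, Benjamini-Hochberg over all 45037 probe sets at 0.05), where 0% of all probe sets passed as higher and 0.0511% as lower in Nkx2.2-/- mice. At an unadjusted limma p under 0.05, 5 Hox probe sets were higher, those of Hoxc8, Hoxd8 (both), Hoxa9 and Hoxd11, and 0 were lower, beside 1.08% and 2.35% of all probe sets. The exact two-sided permutation p of each alone was 0.0238 for Hoxc8, 0.0556 and 0.103 for Hoxd8, 0.0556 for Hoxa9 and 0.0159 for Hoxd11. No Hox probe set had groups that did not overlap (0.315% of all probe sets did so as higher and 0.442% as lower).

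By paralogue group, the difference was above 0 in 9 of 18 probe sets of groups 1 to 4, in 21 of 21 of groups 5 to 9 and in 9 of 12 of groups 10 to 13, against 50.8% of all probe sets. The medians were 0.0074, 0.20 and 0.029, against 0.0010 for all. Several neighbouring Hox genes had the same lowest or highest mice, so these counts repeat the same mice and were given no test. Not all neighbours did so: Hoxc9 and Hoxd9 were lowest in Nkx2.2-/- 43 (5.40 and 4.52), where Hoxd8 was highest (5.85). Without wild-type 18 the median of groups 5 to 9 was 0.11, with 17 of 21 above 0. Without Nkx2.2-/- 11 it was 0.31, with 20 of 21 above 0.

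**Figure D3:**
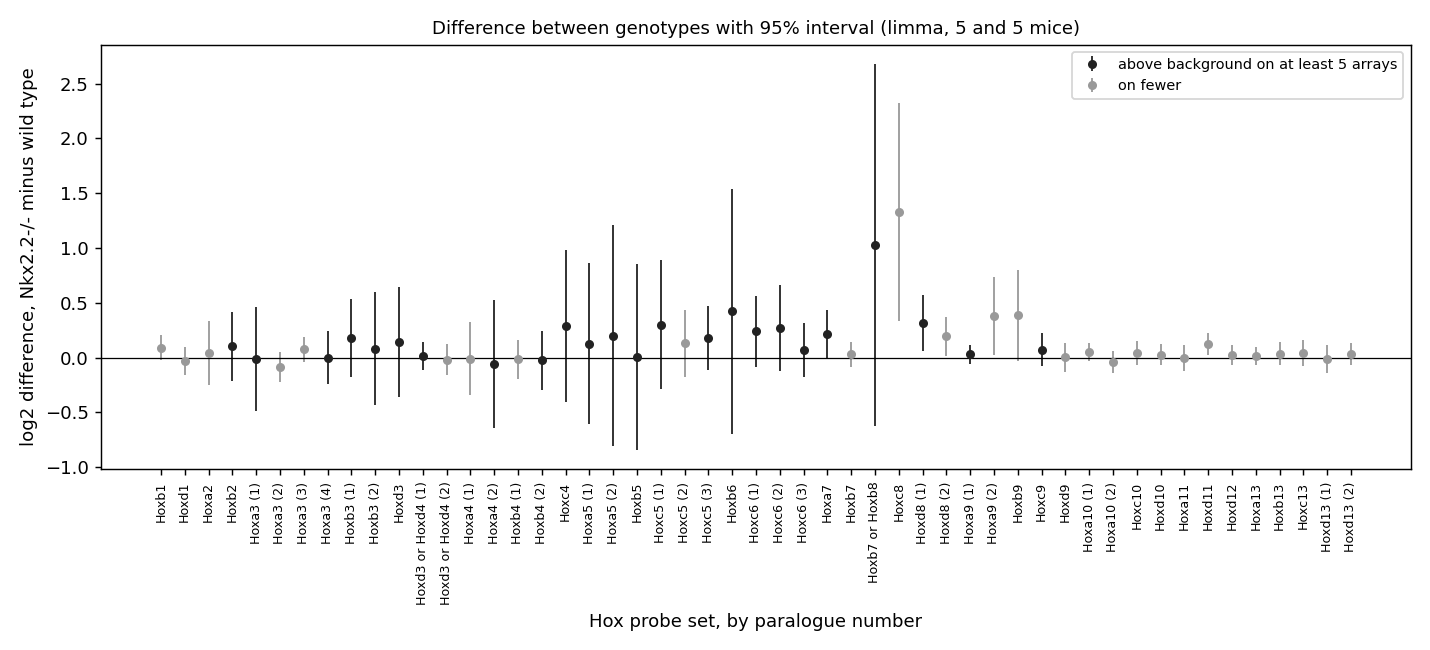
Log2 difference (vertical axis, Nkx2.2-/- minus wild type) of all 51 Hox probe sets by paralogue number, with 95% intervals from limma over 5 and 5 mice; black points were above background on at least 5 arrays and grey points on fewer. Points of groups 5 to 9 lie at or above 0, up to 1.33 for Hoxc8, and the interval of the shared Hoxb7 and Hoxb8 probe set runs from -0.62 to 2.68.

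The mean deviation over the 14 probe sets of groups 5 to 9 that were above background on at least 5 arrays ordered the mice from wild-type 18 (-0.67) and Nkx2.2-/- 11 (-0.58) through wild-type 15 (-0.24), wild-type 14 (-0.15), Nkx2.2-/- 12 (0.09), wild-type 16 (0.20), wild-type 21 (0.24), Nkx2.2-/- 43 (0.27) and Nkx2.2-/- 22 (0.31) to Nkx2.2-/- 29 (0.53). The genotypes were interleaved. The cerebellum adjoins the dissected region and expresses no Hox genes. The mean of its listed markers was highest in wild-type 18 and Nkx2.2-/- 11, the mice of lowest Hox mean. Not every marker followed. Mab21l1 was highest in Nkx2.2-/- 43 (7.70), and Cbln1 and Cbln3 were highest in wild-type 21 (8.69 and 4.72). For Zic1 and Gabra6, wild-type 18 was highest but another mouse lay above Nkx2.2-/- 11. The mean deviation over 15 measured cerebellum markers of 16 was 0.80 in wild-type 18 and 0.57 in Nkx2.2-/- 11. It was 0.33 in wild-type 21, where the Hox mean was 0.24, and between -0.42 and -0.14 in the other 7 mice. Pcp2, a Purkinje cell gene, was at 7.89 and 7.62 in that pair and at 6.64 in wild-type 21, against 5.09 to 5.36 in the rest.

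The cerebellum list averaged 6.09 to 7.14 in wild-type and 5.92 to 6.91 in Nkx2.2-/- mice, with 14 of 15 markers lower in Nkx2.2-/- by sign and 0 past the threshold (limma). Its late granule cell markers Gabra6 and Cbln3 were below background on all arrays. With the list's mean as a covariate the median difference of Hox groups 5 to 9 was 0.080, that of the shared Hoxb7 and Hoxb8 probe set was 0.69 and that of Hoxc8 was 1.15. With wild-type 18 and Nkx2.2-/- 11 left out together, they were 0.25, 1.41 and 1.61. How far down the cord each dissection reached is not marked in the labels, and its part in the Hox values was not tested.

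**Figure D4:**
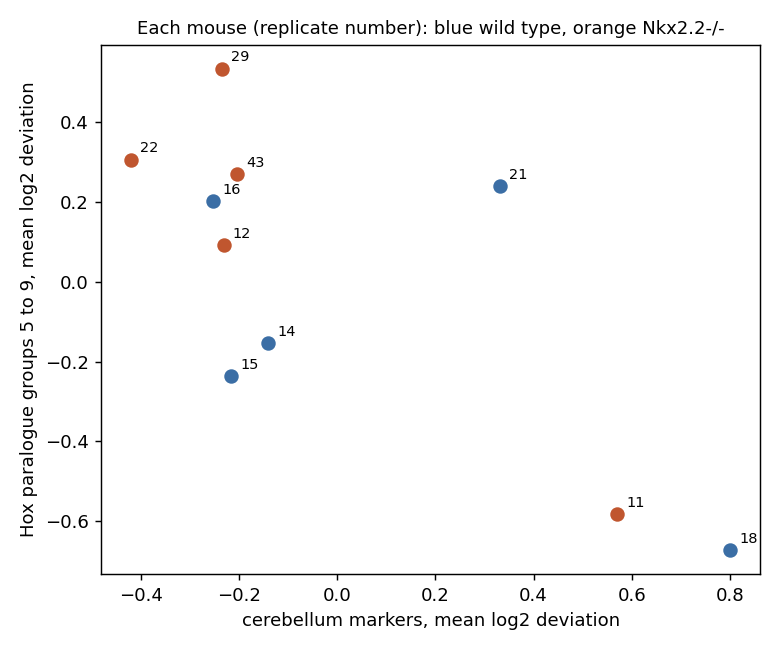
Mean log2 deviation of 14 Hox probe sets of paralogue groups 5 to 9 (vertical axis) against that of 15 cerebellum markers (horizontal axis), 1 point for each mouse with its replicate number, wild type in blue and Nkx2.2-/- in orange. Wild-type 18 and Nkx2.2-/- 11 lie at the lower right, and the other 8 mice have Hox means from -0.24 to 0.53.

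Other neighbouring tissues were read in the same way. Of 14 forebrain and midbrain markers 11 were measured and 6 were below background on all arrays, with list means of 4.85 to 5.21 in wild-type and 4.86 to 5.08 in Nkx2.2-/- mice. The mean deviation of this list was highest in wild-type 18 (0.22) and 15 (0.20). Otx2 was at 6.54 in wild-type 18, 6.23 in Nkx2.2-/- 11 and 5.77 in wild-type 21, against 4.54 to 5.08 in the rest. Six3 and Lhx2 were highest in wild-type 15, at 5.74 and 6.51. Of 8 muscle and cartilage markers, tissues that also express Hox genes, 6 were below background on all arrays, and the list ran from 4.86 to 4.99 and from 4.86 to 5.05. Its mean deviation was highest in Nkx2.2-/- 43 (0.12) and 29 (0.077), while Nkx2.2-/- 22 was at -0.073. Acta1, above background on all arrays, was at 6.71 in Nkx2.2-/- 43 and 6.58 in 29, against 5.77 to 6.22 in the rest. Of 8 meningeal markers all were lower in Nkx2.2-/- mice by sign and 0 passed (limma), with list means of 5.98 to 7.36 and 6.13 to 6.59. Its median difference, -0.38, exceeded in size that of the cerebellum list (-0.15), and its mean deviation was highest in wild-type 15 (0.85) and lowest in wild-type 21 (-0.53). The sensory ganglion list, 5 of 7 measured, ran from 5.49 to 5.68 in wild-type and from 5.29 to 5.87 in Nkx2.2-/- mice. Its lowest mouse was Nkx2.2-/- 11 and its highest Nkx2.2-/- 29, the same mouse that was highest for the Hox genes. Of its genes, Scn10a and Trpv1 were below background on all arrays and Avil was above it on 1. Prrxl1, which is also a gene of the dorsal horn, and Prph were above it on all 10. Those 2 genes had the same lowest and highest mice as the list, and the others did not. The part of these tissues in the Hox values was not tested.

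Of 38 listed Hox partners and regulators, 34 were measured on 72 probe sets, and 0 passed in either direction (limma), with 1 higher and 1 lower at an unadjusted p under 0.05 (1.39% each way, near the 1.08% and 2.35% of all probe sets). Suz12, a Polycomb subunit that helps keep Hox genes silent, had a difference of 0.15 (SE 0.0415) in 1 probe set. Its other 5 ran from -0.082 to 0.020, and the brightest was at -0.057. Gmnn, whose product geminin can bind Hox proteins, had one of -0.22 (SE 0.0651). Nr6a1, a nuclear receptor of trunk development, had differences from 0.022 to 0.14 over 5 probe sets, and Pknox1, a partner homeodomain protein, from 0.11 to 0.14 over 3. The 8 measured partners of the Meis, Pbx and Pknox families had a median difference of -0.0089, and 7 of them were above background in all mice. Upstream factors of early Hox activation, Cdx1 among them (0.059), were mostly below background (5 of 7 on all arrays). By sign, 3 of 6 retinoic acid pathway genes and 5 of 13 chromatin regulators had higher means in Nkx2.2-/- mice.

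Genes outside the family with the most similar or opposite course over the 10 mice were taken from 10655 genes above background on all arrays, by Pearson's r to the groups 5 to 9 mean; they were chosen for r, so no p is given. The 5 most similar were Tac1 (r = 0.961), which encodes the precursor of substance P, Prrxl1 (0.944), a homeobox gene of dorsal horn and sensory neurons, Prss12 (0.935), Plekhd1 (0.934) and Serpinb1b (0.922). Without wild-type 18 and Nkx2.2-/- 11 their r lay between 0.828 for Serpinb1b and 0.916 for Tac1. Prrxl1 was at 6.55, 6.24, 6.69, 5.93 and 7.07 in wild-type and 5.88, 6.89, 6.99, 7.58 and 7.48 in Nkx2.2-/- mice, with the lowest values in the same pair of mice. Its difference between genotypes was 0.47 (limma unadjusted p = 0.162). The 5 most opposite were Bub1b (r = -0.919), Smad7 (-0.913), Ckap2l (-0.910), Mdfic (-0.903) and Fat2 (-0.898). Bub1b and Ckap2l act in mitosis, and Fat2 is a cadherin of cerebellar granule cells. Without that pair of mice the r of Fat2 was -0.682 and that of Ckap2l -0.882.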

How the data were processed

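The authors deposited 1 log2 value per probe set and mouse. Per the submitters' processing notes these came from RMA (its version is not stated there), a method that corrects background, quantile-normalizes and summarises probes. RMA gives no detection call and compresses differences of dim probe sets. Of 45101 probe sets 64 controls were left out. Gene symbols came from the platform's annotation. By it 34945 probe sets had 1 symbol, 932 several and 9160 none. For 48 of 48 Hox probe sets of 1 symbol the Entrez number gave the same symbol in RefSeq (GRCm38.p6).

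Genotypes, from the sample titles, were compared over all 45037 non-control probe sets with lmFit and eBayes of limma 3.58.1 (R 4.3.3), without covariates, Benjamini-Hochberg adjusted. Exact permutation tests used all splits of 5 against 5 (smallest p 0.00794). Tables were handled in pandas 2.3.3 under Python 3.11.15, and plots drawn in matplotlib 3.10.9. The fit was tested on simulated data. The members, lists and tests were chosen with earlier results of these data known. Named in full were the largest difference of each paralogue group above background, the most caudal gene of each cluster above it in all mice, Hoxc8, shared probe sets and those with p under 0.05; others are marked. Alternatives were other normalizations, filters, priors, weights, background lines, a cerebellum covariate and left-out arrays. The number of arrays limits the precision.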

Additional observations from a re-analysis of the deposited data

Results flagged for a closer look

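In 4 of the 21 named Hox probe sets, wild-type 18 lay far below the other 4 wild-type mice (its gap to the next mouse exceeded 0.71 of the group's range, Dixon's 95% limit for 5 samples). Its values were 5.87 for Hoxa4, 6.67 for Hoxa5, 6.93 for Hoxb5 and 6.55 for the probe set shared by Hoxd3 and Hoxd4. For Nkx2-2, wild-type 14 lay far above its group at 6.88. Chance flags about 1 in 20 groups, and 5 were flagged of 44 looked at, but neighbouring Hox genes are not independent of each other. In the Nkx2.2-/- group, 0 were flagged.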

How the results depend on the processing

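No Hox probe set and no partner or regulator passed under any of the 19 alternatives of the fit (0 in each), and the Nkx2-2 difference passed in all, from -2.10 to -1.97 with single arrays left out. No paired analysis was possible because the 2 groups share no replicate numbers. Leaving out single arrays, the median Hox difference ran from -0.033 to 0.078 for groups 1 to 4, from 0.11 to 0.31 for groups 5 to 9 and from 0.017 to 0.04 for groups 10 to 13. Of 388 values of the 21 named probe sets under alternatives, 368 kept their direction, 20 took the other (7 probe sets) and 0 passed. With array weights Hoxa4 was at 0.076, Hoxc8 at 0.85 and the groups 1 to 4 median at 0.077. With the cerebellum covariate the Hoxd3 and Hoxd4 probe set was at -0.022, the Hoxa5 probe sets at -0.10 and -0.12 and Hoxb5 at -0.26. Without wild-type 18 and Nkx2.2-/- 11, the shared Hoxd3 and Hoxd4 probe set was at -0.012 and Hoxb5 at -0.12. With single arrays left out, ranges were -0.30 to 0.10 for Hoxa4, -0.16 to 0.35 and -0.20 to 0.51 for Hoxa5, -0.0020 to 0.19 for Hoxb2, -0.35 to 0.23 for Hoxb5, -0.0019 to 0.28 for Hoxd3 and -0.034 to 0.038 for the Hoxd3 and Hoxd4 probe set, 1.02 to 1.64 for Hoxc8, 0.11 to 0.87 for Hoxb6 and 0.041 to 0.52 for Hoxc4; the cause of each change of sign was not tested. The median caudal limit stayed at 9 in both groups under the other background lines, though 2 wild-type mice fell to 6 with the 99th percentile, and moved to 8 in both groups without those probe sets of Hoxa9 and Hoxc9, chosen after seeing the data. The groups 10 to 13 median could not be had over probe sets above background, since none were left. Values below the background line carry little information on level.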

Other observations

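Antisense transcripts of the Hox clusters, which are not among the listed genes, gave 5 probe sets. Hoxb5os, from the middle of cluster b, was above background in all 10 mice, at 5.76, 5.83, 5.93, 5.31 and 5.98 in wild-type and 5.56, 5.73, 5.98, 6.03 and 5.87 in Nkx2.2-/- mice, again lowest in wild-type 18 and Nkx2.2-/- 11. The brighter probe set of Hoxd3os1 was at 4.67, 4.72, 5.12, 4.56 and 5.30 against 4.63, 4.84, 5.63, 5.47 and 5.44, with its 3 highest values in Nkx2.2-/- 22, 29 and 43 and a difference of 0.33 (limma unadjusted p = 0.151). The 2 probe sets of Hoxa11os, opposite a lumbosacral gene, were below background in every mouse.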
